A study of Homo sapiens with 12 samples.

Results

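Expression of 9 genes of major histocompatibility complex (MHC) class I antigen presentation was followed in CAMA-1 cells: HLA-B, HLA-C, HLA-E, HLA-F, B2M, TAP1, TAP2, TAPBP and NLRC5. The genes were selected by symbol from a table of 60612 named rows, with earlier results of these data known, and all 9 were present. Of these, 8 held enough reads to be tested, among 11803 genes in all, whereas NLRC5 did not. CAMA-1 is a long-established luminal human breast cancer line. Its libraries were made from polyadenylated RNA primed at the 3′ end, so a gene's count depends little on transcript length.

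All cells were CAMA-1, differing only in treatment, and each of the 4 groups comprised 3 biological replicates. The DMSO group received vehicle. The abemaciclib group received 100 nM of this inhibitor of the kinases CDK4 and CDK6, and the fulvestrant group received 5 nM of a drug that degrades the oestrogen receptor. The combination group received both agents, for which the labels repeat no dose. Exposure lasted 5 days per the study's methods. A single cell line in culture holds no immune or stromal cells, and fewer cells carrying a transcript cannot be told apart from less RNA per cell in these bulk libraries.

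MHC class I molecules display peptides from inside the cell to CD8+ T cells and to natural killer cells. Proteasomes cut cytosolic proteins into peptides, the TAP1–TAP2 transporter moves these into the endoplasmic reticulum, and tapasin, encoded by TAPBP, holds empty class I molecules at the transporter until a peptide binds. The mature molecule pairs a polymorphic heavy chain with the invariant light chain β2-microglobulin (B2M). Transcription of the heavy-chain and B2M genes is driven by NLRC5 with an RFX complex at their promoters, and is raised by interferon through IRF factors and by NF-κB.

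Class I promoters are known for response elements of interferon and NF-κB, and 5 promoters are printed to show where such letters lie. Windows run from 250 bases before to 50 bases after the annotated start site, 5′ to 3′ on the gene's strand, and come from RefSeq on GRCh38.p14; 7 of 9 genes had an entry, and HLA-E and NLRC5 did not. They lie at chr6:31357130-31357429 (minus strand) for HLA-B, chr6:29723184-29723483 (plus) for HLA-F, chr15:44711267-44711566 (plus) for B2M, chr6:32853655-32853954 (minus) for TAP1 and chr6:33314029-33314328 (minus) for TAPBP. Capitals mark matches, on either strand, to the core of an interferon-stimulated response element (ISRE; GAAANNGAA, or GAANNGAAA, the second spelling being added after the sequences were seen) and to a κB site (GGGGANTCC).
HLA-B: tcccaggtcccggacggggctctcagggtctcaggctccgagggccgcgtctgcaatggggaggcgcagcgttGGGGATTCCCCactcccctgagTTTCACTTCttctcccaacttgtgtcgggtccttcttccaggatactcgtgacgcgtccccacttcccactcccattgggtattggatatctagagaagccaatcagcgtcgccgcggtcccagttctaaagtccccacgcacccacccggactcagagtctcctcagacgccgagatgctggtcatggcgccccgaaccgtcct
HLA-F: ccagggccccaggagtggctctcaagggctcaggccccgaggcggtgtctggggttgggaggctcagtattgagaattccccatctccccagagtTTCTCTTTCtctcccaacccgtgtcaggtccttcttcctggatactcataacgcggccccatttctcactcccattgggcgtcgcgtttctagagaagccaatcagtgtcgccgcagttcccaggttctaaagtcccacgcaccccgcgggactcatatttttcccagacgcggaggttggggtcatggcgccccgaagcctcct
B2M: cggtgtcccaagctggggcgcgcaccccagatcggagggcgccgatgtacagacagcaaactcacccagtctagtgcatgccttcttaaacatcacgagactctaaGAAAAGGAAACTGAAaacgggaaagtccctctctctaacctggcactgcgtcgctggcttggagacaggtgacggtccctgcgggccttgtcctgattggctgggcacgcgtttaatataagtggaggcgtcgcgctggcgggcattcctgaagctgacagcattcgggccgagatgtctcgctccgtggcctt
TAP1: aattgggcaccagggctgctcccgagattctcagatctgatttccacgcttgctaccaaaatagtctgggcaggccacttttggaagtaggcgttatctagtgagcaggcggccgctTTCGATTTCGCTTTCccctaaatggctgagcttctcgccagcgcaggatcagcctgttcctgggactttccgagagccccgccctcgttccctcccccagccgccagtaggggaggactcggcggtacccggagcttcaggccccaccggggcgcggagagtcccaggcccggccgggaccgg
TAPBP: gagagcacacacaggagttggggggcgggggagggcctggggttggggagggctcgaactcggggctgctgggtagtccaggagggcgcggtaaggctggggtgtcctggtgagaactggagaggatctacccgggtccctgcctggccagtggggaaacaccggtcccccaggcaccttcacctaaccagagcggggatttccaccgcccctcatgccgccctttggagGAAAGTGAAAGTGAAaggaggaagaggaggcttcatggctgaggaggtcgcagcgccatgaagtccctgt

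The first ISRE spelling was present in 5 of the 7 windows (HLA-F, B2M, TAP1, TAP2 and TAPBP), against 8.11% of all promoters of this length. The other spelling was present in 3 of 7 (HLA-B, HLA-C and TAP2), against 7.66%, and in TAP2 the matches of both spellings overlapped. In the capitals of B2M, TAP1 and TAPBP, 2 overlapping matches of the first spelling run together. The κB letters were found in HLA-B alone of the 7, as 2 overlapping matches in opposite orientations upstream of its ISRE, against 1.53% of all promoters. CCAAT was present in 5 of 7 windows and TGACG, a cyclic AMP response element core, in 4 of 7, against 34.6% and 24.6%. No window held TTTNNCGC, an E2F site (6.89% of all promoters), or the oestrogen response element (0.057%). These are matches of letters and were not tested for binding.

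Library totals ranged from 3299119 to 5164667 counts, and every library resembled a library of its own group most. The least similar to its own group was fulvestrant replicate 3, with a mean correlation of 0.975 to the other 2 across genes. Values below whose call changed without it are given both ways, as are some others that moved. All 8 luminal epithelial markers were expressed, with a summed level of 6341 to 8383 CPM across libraries, CPM being counts scaled to a common library total. Leukocyte markers (10 genes) summed to at most 1.97 CPM with 4 of them at 0 throughout, and endothelial markers (4 genes) to at most 0.844 CPM. Fibroblast markers (6 genes) summed to 17.7–36.9 CPM, all from COL1A1 and COL3A1, while the other 4 were at 0 in every library.

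HLA-B and HLA-C encode the classical heavy chains that present peptide to T cells, and the treatments moved them differently. HLA-B (chromosome 6: 31353872–31367067, minus strand, GENCODE v44 on GRCh38) was measured at 125, 134 and 136 CPM in the DMSO libraries, 176, 186 and 191 CPM with abemaciclib, 107, 105 and 95.4 CPM with fulvestrant, and 103, 94.4 and 94.3 CPM with the combination. The abemaciclib libraries stood above all others and the fulvestrant and combination libraries stood below DMSO, without overlap. On the log2 scale, HLA-B rose by 0.48 ± 0.08 (SE) with abemaciclib (quasi-likelihood test of edgeR, p adjusted by Benjamini-Hochberg = 2.2e-05). It fell by 0.36 ± 0.08 with fulvestrant (adjusted p = 0.000643) and fell by 0.44 ± 0.08 with the combination (adjusted p = 6.27e-05).

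HLA-C (chromosome 6: 31268749–31272130, minus strand) was measured at 59.2, 70.7 and 67.4 CPM in DMSO, 95.8, 94.0 and 99.3 CPM with abemaciclib, 99.1, 105 and 70.0 CPM with fulvestrant, and 74.4, 74.8 and 85.6 CPM with the combination. The abemaciclib and combination libraries all exceeded DMSO, whereas fulvestrant replicate 3 fell among the DMSO values. HLA-C rose with abemaciclib (log2 fold change 0.54 ± 0.12, adjusted p = 0.000546) and with fulvestrant (0.46 ± 0.12, adjusted p = 0.00199). Without fulvestrant replicate 3 the rise with fulvestrant was 0.62. The combination gave 0.25 ± 0.12 and did not pass (adjusted p = 0.0794), although it did with only the groups compared in the model (0.24, adjusted p = 0.0433) and without fulvestrant replicate 3 (0.25, adjusted p = 0.0208). Heavy-chain genes closely resemble one another and their pseudogenes, so the division of reads among them is uncertain. Of those copies, HLA-H held 5, HLA-J 51, HLA-K 0 and HLA-L 25 counts over all 12 libraries.

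The ratio of HLA-B to HLA-C counts within a library needs no scaling between libraries and describes the balance of these heavy chains. The ratio was 2.01 ± 0.101 (SD, n = 3) in DMSO and 1.91 ± 0.0697 with abemaciclib, whose ranges overlapped. It was 1.15 ± 0.190 with fulvestrant and 1.25 ± 0.145 with the combination, and all 6 libraries that received fulvestrant lay below all 6 that did not.

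HLA-E and HLA-F are non-classical heavy chains, HLA-E being the ligand of the natural killer receptor CD94–NKG2A. HLA-E (chromosome 6: 30489509–30494194, plus strand) lay at 95.2–104 CPM in DMSO, 96.8–116 CPM with abemaciclib, 101–133 CPM with fulvestrant and 94.3–108 CPM with the combination, so that every treated group overlapped DMSO. Its rise with fulvestrant passed the test (0.29 ± 0.10, adjusted p = 0.017), although fulvestrant replicate 3, at 101 CPM, stood within the DMSO range. Without that library the rise was 0.41. The call was lost on leaving out any 1 of DMSO replicate 3, fulvestrant replicate 1 or fulvestrant replicate 2, with adjusted p up to 0.0915. The values with abemaciclib (0.11 ± 0.10, adjusted p = 0.391) and the combination (0.02 ± 0.10, adjusted p = 0.878) did not pass.

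HLA-F (chromosome 6: 29722775–29738528, plus strand) was a rare transcript, read from 3, 20 and 21 counts in DMSO, 33, 33 and 47 with abemaciclib, 11, 13 and 3 with fulvestrant, and 5 in each combination library. In CPM these are 0.887, 3.79 and 4.33, then 6.58, 7.26 and 11.8, then 2.71, 3.66 and 0.682, and finally 1.20, 1.03 and 0.968. The abemaciclib libraries were above all others, while DMSO replicate 1 fell below the combination libraries. HLA-F rose with abemaciclib (1.40 ± 0.39, adjusted p = 0.006) and was lower with the combination (−1.57 ± 0.55, adjusted p = 0.0193). The call for the combination was lost on leaving out any 1 of DMSO replicates 2 and 3 or combination replicates 2 and 3 (adjusted p up to 0.101), and the fulvestrant value did not pass (−0.49 ± 0.49, adjusted p = 0.426). The latter was −0.0203 without fulvestrant replicate 3 and −0.93 without fulvestrant replicate 2. An antisense gene, HLA-F-AS1, covers the 3′ end of HLA-F and held 0 counts in every library, and because the strand setting of the counting is not stated, reads of the pair could not be told apart.

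B2M (chromosome 15: 44711358–44718851, plus strand), the light chain shared by every class I heavy chain, did not pass in any comparison with DMSO in the main model of all 12 libraries. Its values were 277, 302 and 304 CPM in DMSO, 315, 328 and 358 CPM with abemaciclib, 269, 319 and 352 CPM with fulvestrant, and 349.6, 357 and 301 CPM with the combination. The abemaciclib libraries exceeded all DMSO libraries, while the other treated groups overlapped DMSO. The log2 fold change was 0.18 ± 0.09 for abemaciclib (adjusted p = 0.119, 95% confidence interval −0.00797 to 0.36), 0.09 ± 0.09 for fulvestrant (adjusted p = 0.43) and 0.19 ± 0.09 for the combination (adjusted p = 0.0792). With only the groups compared in the model, the abemaciclib value of 0.18 passed (adjusted p = 0.0338). The combination value passed without fulvestrant replicate 3 (0.19, adjusted p = 0.0296) and without combination replicate 3 (0.26, adjusted p = 0.0267), and the fulvestrant value was −0.0054 without fulvestrant replicate 3.

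**Figure D1:**
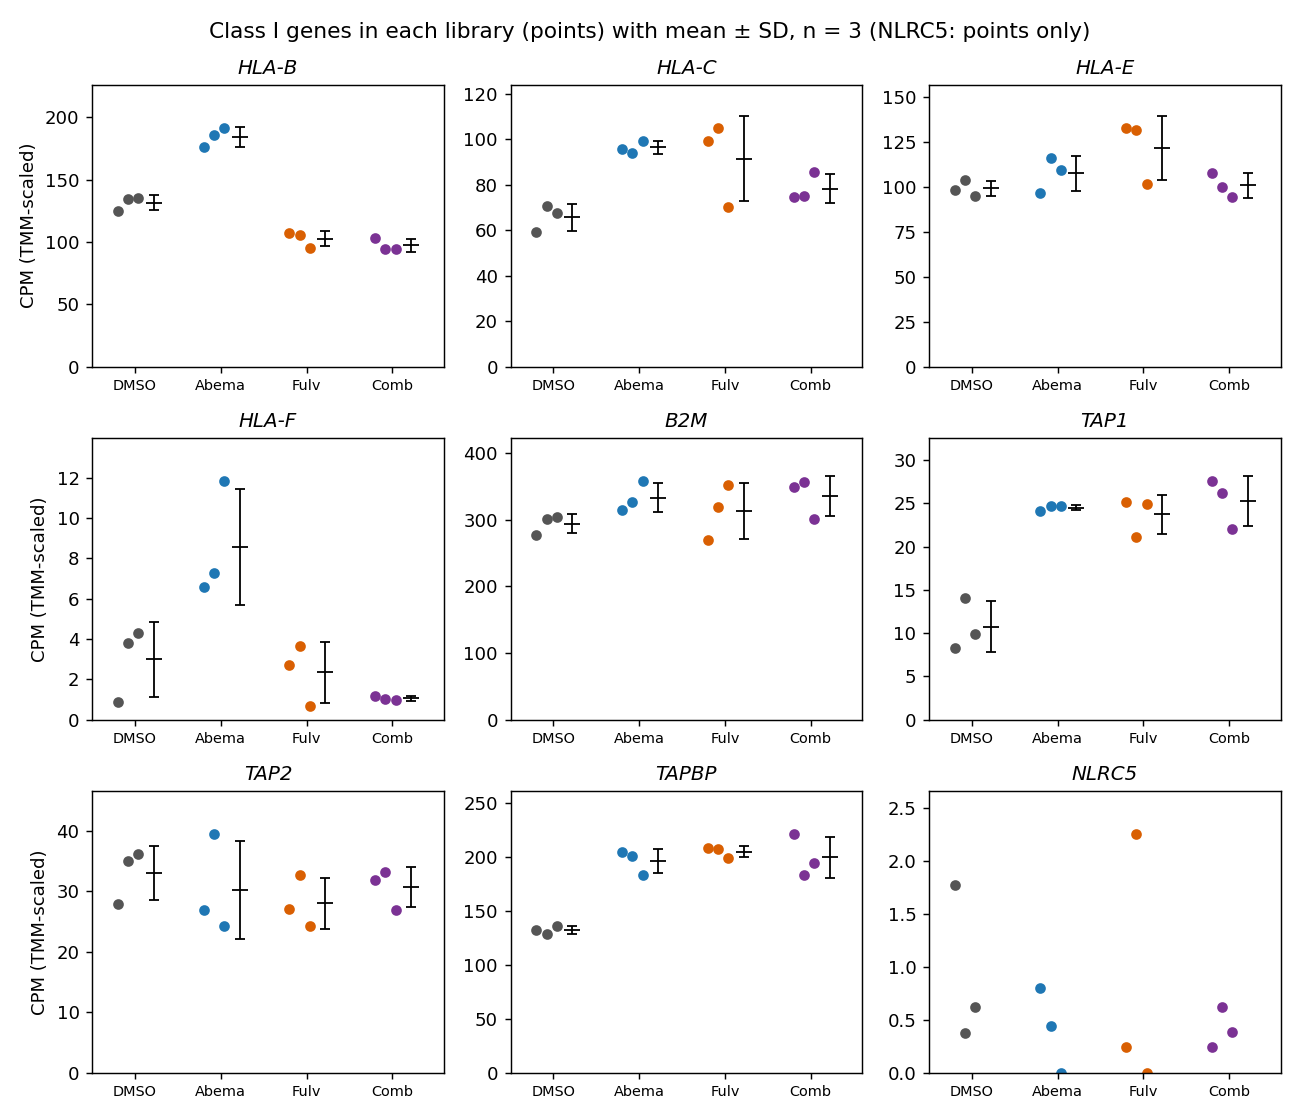
Each panel plots 1 gene in CPM on TMM-scaled library sizes (vertical axis, from 0) for the 4 groups, with points for libraries and bars for the mean ± SD of 3 libraries (points alone for NLRC5). HLA-B was above DMSO with abemaciclib and below it in both fulvestrant-treated groups, whereas TAP1 and TAPBP were above DMSO in every treated library.

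The peptide transporter subunits did not move together. TAP1 (chromosome 6: 32845209–32853816, minus strand) was measured at 8.28, 14.0 and 9.89 CPM in DMSO, 24.1, 24.7 and 24.7 CPM with abemaciclib, 25.1, 21.1 and 25.0 CPM with fulvestrant, and 27.6, 26.2 and 22.1 CPM with the combination. Each of the 9 treated libraries exceeded each DMSO library. Of the 8 genes, TAP1 had the largest increase with fulvestrant (1.11 ± 0.17, adjusted p = 5.72e-06) and with the combination (1.20 ± 0.17, adjusted p = 1.15e-06), and rose by 1.15 ± 0.17 with abemaciclib (adjusted p = 4.56e-06). PSMB9, an immunoproteasome gene on the opposite strand, and the antisense gene PSMB8-AS1 cover the 3′ end of TAP1, and they held 4–21 counts per library and 7 counts in total, respectively.

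TAP2 (chromosome 6: 32821833–32838739, minus strand), the partner subunit, was measured at 27.8–36.1 CPM in DMSO, 24.2–39.4 CPM with abemaciclib, 24.3–32.6 CPM with fulvestrant and 26.9–33.2 CPM with the combination. All groups overlapped, and the log2 fold changes against DMSO were −0.14 ± 0.16, −0.26 ± 0.16 and −0.12 ± 0.16 for abemaciclib, fulvestrant and the combination (adjusted p = 0.524, 0.202 and 0.546). The ratio of TAP1 to TAP2 counts was 0.298, 0.40 and 0.274 in the DMSO libraries, and every treated library was higher. It was 0.896, 0.626 and 1.02 with abemaciclib, 0.927, 0.647 and 1.03 with fulvestrant, and 0.865, 0.789 and 0.820 with the combination. A readthrough gene on the same strand shares the 3′ end of TAP2, so its count is uncertain.

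TAPBP (chromosome 6: 33299694–33314284, minus strand), which encodes tapasin, followed TAP1. It was measured at 133, 129 and 136 CPM in DMSO, 205, 200.3 and 183 CPM with abemaciclib, 208, 207 and 199 CPM with fulvestrant, and 221, 183 and 194 CPM with the combination. All 9 treated libraries exceeded all DMSO libraries, and the treated groups overlapped one another. The rises were 0.57 ± 0.08 with abemaciclib, 0.63 ± 0.08 with fulvestrant and 0.59 ± 0.08 with the combination (adjusted p = 3.08e-06, 3.64e-07 and 8.12e-07). An antisense non-coding gene covers the 3′ end of TAPBP as well.

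NLRC5 (chromosome 16: 56989485–57083531, plus strand), the transactivator of class I genes, was near the limit of detection. It was read from 6, 2 and 3 counts in DMSO, 4, 2 and 0 with abemaciclib, 1, 8 and 0 with fulvestrant, and 1, 3 and 2 with the combination. No library reached the 10 counts asked of a tested gene, and a difference between groups was not detectable at this depth.

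Counted together, 5 of the 8 tested class I genes rose with abemaciclib (HLA-B, HLA-C, HLA-F, TAP1 and TAPBP) and 0 fell, against 20.5% of all tested genes higher and 20.7% lower. With fulvestrant, 4 rose (HLA-C, HLA-E, TAP1 and TAPBP) and HLA-B fell, against 25.3% higher and 25.7% lower. With the combination, 2 rose (TAP1 and TAPBP) and 2 fell (HLA-B and HLA-F), against 27.7% higher and 27.5% lower, so that the share of class I genes past the threshold was close to that of all genes. Median log2 fold changes of the 8 genes were 0.51, 0.19 and 0.10 for abemaciclib, fulvestrant and the combination, and those of all tested genes were within 0.0103 of 0. The 3 comparisons share the DMSO libraries, and HLA-F, which passed the count filter in 7 libraries, of which 4 lay outside the abemaciclib group, is included in each.

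**Figure D2:**
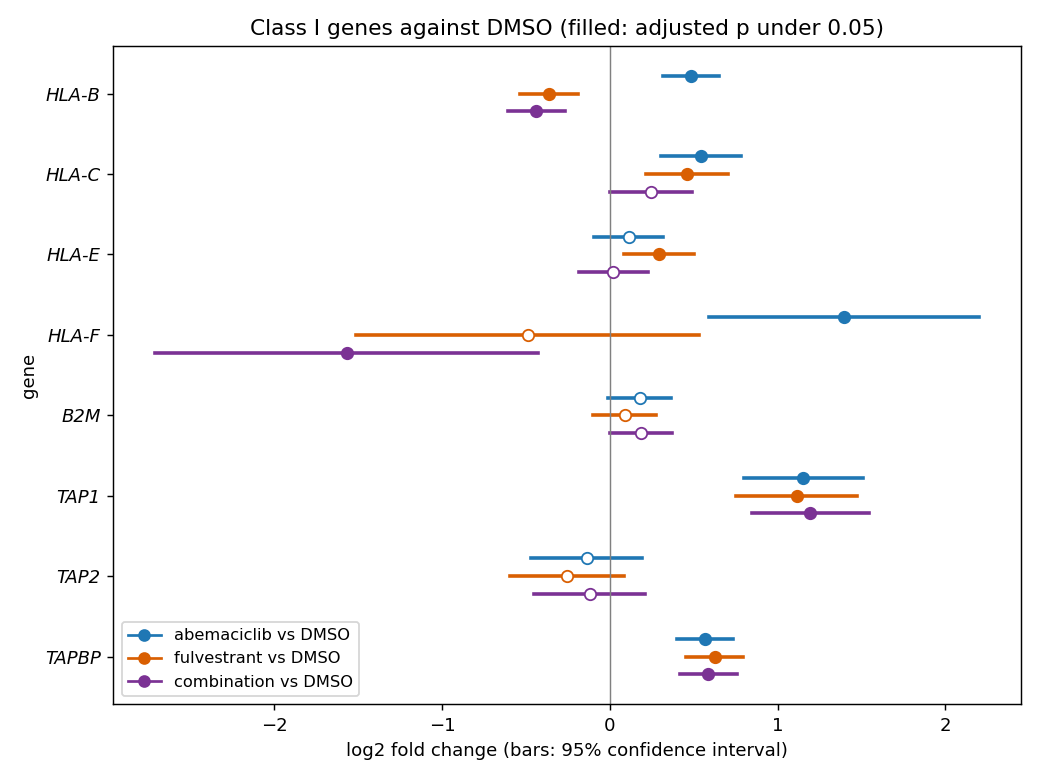
Log2 fold change against DMSO (horizontal axis) of the 8 tested class I genes for each treatment, with 95% confidence intervals and filled symbols where the adjusted p passed 0.05. HLA-B lay at 0.48, −0.36 and −0.44 for abemaciclib, fulvestrant and the combination, while TAP1 lay between 1.11 and 1.20 and TAPBP between 0.57 and 0.63 for all 3.

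Whether the drugs alone differed from each other was asked by setting abemaciclib against fulvestrant. Of the 8 genes, 2 were higher with abemaciclib and 0 lower, against 15.5% and 13.4% of all genes. These were HLA-B (0.85 ± 0.08, adjusted p = 7.68e-09) and HLA-F (1.89 ± 0.43, adjusted p = 0.00158). TAP1 differed by 0.04 (adjusted p = 0.88), TAPBP by −0.06 (adjusted p = 0.633) and HLA-C by 0.08 (adjusted p = 0.645), none of which passed, nor did HLA-E, B2M or TAP2 (adjusted p = 0.192, 0.511 and 0.646). Without fulvestrant replicate 3, HLA-E moved from −0.18 to −0.30 and passed (adjusted p = 0.0131), B2M moved from 0.09 to 0.18 without passing, and HLA-C changed sign to −0.0809. The median of the 8 was 0.09, against −0.0108 for all genes.

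To find what fulvestrant changed in cells already given abemaciclib, the combination was compared with abemaciclib. Here 0 of the 8 genes were higher and 3 lower, against 15.9% and 17.7% of all genes. HLA-B fell by 0.92 ± 0.08 (adjusted p = 8.28e-10) and HLA-F by 2.96 ± 0.47 (adjusted p = 2.82e-05). HLA-C was lower by a smaller amount (−0.30 ± 0.11, adjusted p = 0.0473), a call that 8 of the 12 refits leaving out 1 library lost (adjusted p up to 0.149), as did DESeq2 (adjusted p = 0.0926). The libraries concerned were every abemaciclib replicate, combination replicates 1 and 2, DMSO replicates 2 and 3, and fulvestrant replicate 1. HLA-E gave −0.09 (adjusted p = 0.514). TAP1, TAPBP, TAP2 and B2M lay within 0.04 of 0, with adjusted p of 0.865 or more.

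What abemaciclib changed in cells already given fulvestrant was asked by comparing the combination with fulvestrant. None of the 8 genes passed edgeR's quasi-likelihood test, 0 higher and 0 lower, against 0.297% and 1.63% of all genes. DESeq2 also called 0, and HLA-E was the 1 gene whose unadjusted value passed 0.05 (−0.27 ± 0.10, adjusted p = 0.231). Without fulvestrant replicate 3, HLA-C (−0.38, adjusted p = 0.0171) and HLA-E (−0.39, adjusted p = 0.00689) were both lower with the combination.

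The interaction, the log2 change with abemaciclib in the presence of fulvestrant minus that in its absence, tests directly whether the effects add. Of the 8 genes, 5 had a negative interaction and 0 a positive one, against 11.6% and 9.49% of all genes, with a median of −0.58 beside −0.0127 for all genes. TAP1 rose by 1.15 with abemaciclib alone and differed by 0.08 when fulvestrant was present, an interaction of −1.07 ± 0.23 (adjusted p = 0.00138). TAPBP changed from 0.57 to −0.04 (interaction −0.60 ± 0.12, adjusted p = 0.000358), and its level with both drugs overlapped that with either alone. For HLA-B the interaction was −0.56 ± 0.12 (adjusted p = 0.000973), and its level with both drugs overlapped that with fulvestrant. HLA-C (−0.76 ± 0.16, adjusted p = 0.00154) and HLA-F (−2.47 ± 0.72, adjusted p = 0.0163) also passed, the latter with adjusted p up to 0.0758 when fulvestrant replicate 1 or 2 was left out. HLA-E (−0.39 ± 0.14, adjusted p = 0.0533), B2M (−0.08 ± 0.13, adjusted p = 0.71) and TAP2 (0.27 ± 0.23, adjusted p = 0.434) did not pass. HLA-E did pass when fulvestrant replicate 3 (−0.50, adjusted p = 0.00209), abemaciclib replicate 1 (−0.46, adjusted p = 0.0347) or combination replicate 1 (−0.44, adjusted p = 0.0429) was left out.

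**Figure D3:**
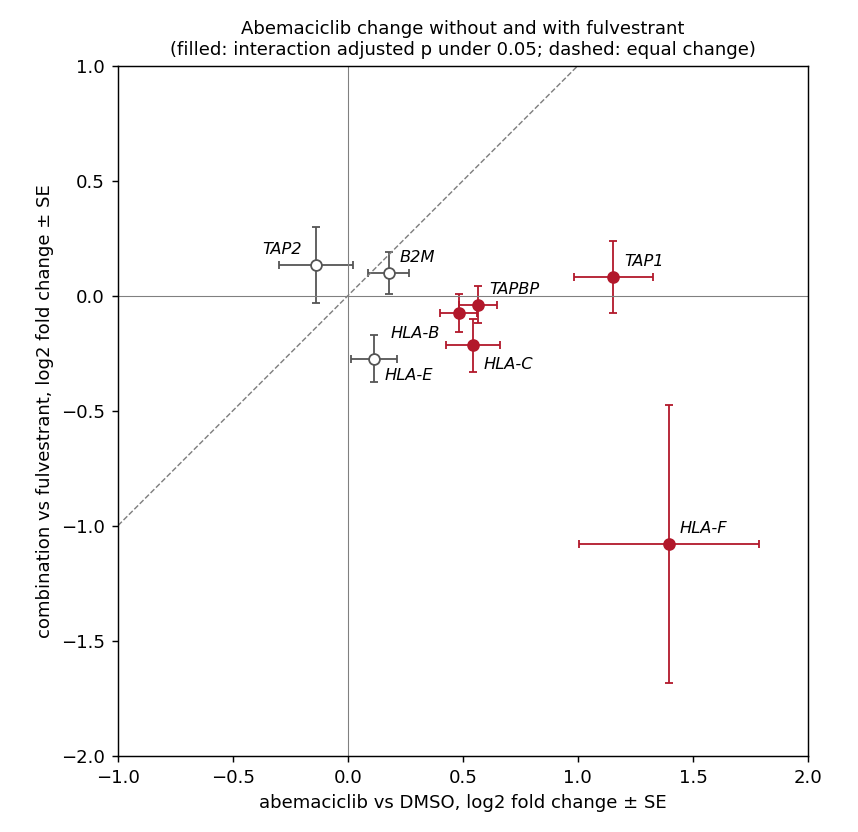
Log2 change with abemaciclib alone (horizontal axis) against the change when fulvestrant was present (vertical axis) for the 8 tested genes, with bars for ± SE, a dashed line of equal change and filled symbols where the interaction passed. The 5 filled genes lie below the line, TAP1 at 1.15 and 0.08 and HLA-F at 1.40 and −1.08.

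Across the 12 libraries, which share the treatment groups and their 3 replicates, levels of TAP1 and TAPBP were the most closely related among the pairs described (Pearson r of log2 CPM 0.905), followed by HLA-B and HLA-F (0.881). HLA-C had r of 0.678 with TAPBP and of 0.300 with HLA-B, and HLA-B had r of −0.0960 with TAP1. Among 8457 ranked genes, those most like HLA-B were STC2, ITGB5 and EAF1 (r = 0.978 for each), those most like TAP1 included LMTK3 and PTK6 (0.963 for both), and those most like B2M were APPBP2 (0.823), PHETA1 (0.821) and RNF149 (0.818). These values describe shared group differences and carry no test.

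Upstream of the class I genes, transcripts for receptors and signalling proteins of the interferon pathways were mostly higher in treated cells. Among the genes listed, NF-κB was represented by RELA and NFKB1, named here after their values were seen. RELA rose by 0.24, 0.27 and 0.29 with abemaciclib, fulvestrant and the combination. NFKB1 did not pass in any of these comparisons (0.09, −0.08 and −0.03). Of 14 listed genes, all tested, 8 rose and 0 fell with abemaciclib, 10 rose and 1 fell with fulvestrant, and 8 rose and 1 fell with the combination, against 20.5% higher and 20.7% lower, 25.3% and 25.7%, and 27.7% and 27.5% of all tested genes in the same order. Their medians were 0.47, 0.47 and 0.51 beside all-gene medians within 0.0103 of 0. IFNGR2, a subunit of the interferon-γ receptor, was measured at 14.4 ± 0.619 CPM in DMSO, 34.7 ± 3.87 with abemaciclib, 28.5 ± 5.48 with fulvestrant and 25.7 ± 5.09 with the combination. It rose by 1.28 ± 0.17, 0.99 ± 0.17 and 0.85 ± 0.17 (adjusted p = 5.01e-07, 2.17e-05 and 0.000125).

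IRF1, an interferon-induced transcription factor that binds ISRE sequences, rose by 0.78 ± 0.17, 0.70 ± 0.18 and 0.71 ± 0.17 with abemaciclib, fulvestrant and the combination (adjusted p = 0.0007, 0.00174 and 0.000991). JAK1 and JAK2, the kinases bound to the interferon-γ receptor, rose in each comparison by 0.57 to 0.74. The gene that fell in both fulvestrant-treated groups was IFNAR2, a type I interferon receptor subunit named here after its values were seen (−0.71 and −0.68). Between the combination and fulvestrant none of the 14 passed, against 0.297% of all genes higher and 1.63% lower. The interaction was negative for 6 and positive for 0, against 11.6% and 9.49% of all genes, with a median of −0.47.

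**Figure D4:**
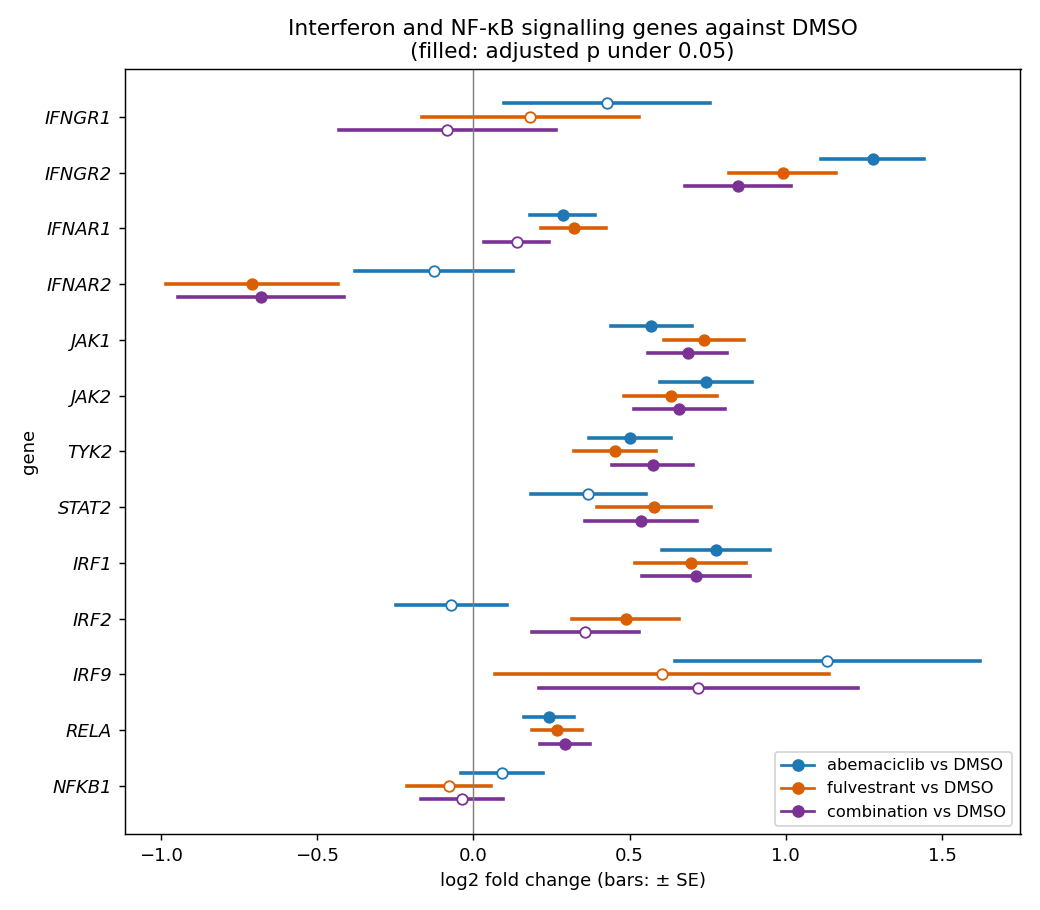
Log2 fold change against DMSO (horizontal axis) of 13 of the 14 interferon and NF-κB signalling genes for each treatment, with bars for ± SE and filled symbols where the adjusted p passed 0.05. IFNGR2 lay furthest to the right for abemaciclib (1.28) and IFNAR2 furthest to the left for fulvestrant (−0.71).

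Interferons themselves were scarcely detected. IFNB1, IFNG and IFNL3 held 0 counts in every library, and IFNL1 and IFNL2 held 2 and 4 counts in all 12. Of 14 interferon and nucleic acid sensor genes, 12 were in the table and 3 were tested. With abemaciclib 2 rose and 0 fell, against 20.5% higher and 20.7% lower of all tested genes. These were DDX58, encoding the RNA sensor RIG-I (0.62 ± 0.19), and its adaptor MAVS (0.25 ± 0.08). With fulvestrant 0 passed in either direction, against 25.3% and 25.7%. With the combination 1 rose and 0 fell (DDX58, 0.66 ± 0.19), against 27.7% and 27.5%.

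The RFX5, RFXAP and RFXANK proteins form the complex through which NLRC5 acts on class I promoters. Of 8 listed genes of this complex and its partners, all tested, 1 rose and 1 fell with abemaciclib, 2 rose and 1 fell with fulvestrant, and 1 rose and 1 fell with the combination. These counts are near or below the shares of all genes called, which were 20.5% higher and 20.7% lower, 25.3% and 25.7%, and 27.7% and 27.5% for the same comparisons. RFX5 was measured at 27.3 ± 1.98 CPM in DMSO, 39.8 ± 6.47 with abemaciclib, 38.6 ± 6.33 with fulvestrant and 29.2 ± 0.916 with the combination. It rose with abemaciclib (0.53 ± 0.14, adjusted p = 0.00302) and with fulvestrant (0.48 ± 0.14, adjusted p = 0.0054) and had an interaction of −0.92 ± 0.20 (adjusted p = 0.00114). RFXANK was lower with fulvestrant (−0.39) and with the combination (−0.60 ± 0.12, adjusted p = 0.000116).

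Genes that make and load peptides were listed apart. PSME1 and PSME2, subunits of the proteasome activator PA28, were lower in every treated group, PSME2 by −0.33 ± 0.09, −0.66 ± 0.09 and −0.72 ± 0.09 with abemaciclib, fulvestrant and the combination (adjusted p = 0.00363, 8.51e-07 and 1.23e-07). They were the only genes to pass among the 3 tested of 5 immunoproteasome and activator genes, the catalytic subunits PSMB8 and PSMB10 being read from 0–12 and 0–1 counts per library. Of all tested genes, 20.7%, 25.7% and 27.5% were lower in the same comparisons. Of 8 tested genes of loading and quality control, 1 rose and 0 fell with abemaciclib, 1 rose and 2 fell with fulvestrant, and 2 rose and 2 fell with the combination, which is near or below the shares of all genes called in those comparisons (20.5% higher and 20.7% lower, 25.3% and 25.7%, and 27.7% and 27.5%). CANX, the chaperone calnexin, was lower with fulvestrant (−0.38 ± 0.08, adjusted p = 0.000169) and with the combination (−0.44 ± 0.08, adjusted p = 2.05e-05). LNPEP, a peptide-trimming aminopeptidase, was higher in all 3 (0.54, 0.43 and 0.46).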

How the data were processed

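The files deposited by the authors hold raw read counts by gene symbol for 12 libraries of 3′ RNA-seq in CAMA-1 cells. Per the study's methods and labels, reads were trimmed with BBDuk, aligned to the human genome (hg38) with STAR and counted with featureCounts 2.0.1; whether counting used the strand is not given in the sources used here. Molecular identifiers are not named, so reads are not independent molecules.

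Groups followed the treatment labels. Of 60656 rows, 44 had no gene name and 0 reads and were left out. In R 4.3.3, genes passing filterByExpr of edgeR 4.0.16 (minimum count 10, minimum total 15) were kept, scaled by TMM, and tested with 1 quasi-likelihood model of 4 group means over all 12 libraries, with Benjamini-Hochberg adjustment over 11803 genes and a threshold of 0.05. CPM values use TMM-scaled library sizes. The pipeline was tested on simulated data. Alternatives were DESeq2 1.42.0, RLE and upper-quartile scaling, other count filters, only the groups compared, a replicate block and each library left out.

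The genes and lists were chosen with earlier results of these data known. All 9 class I genes are reported; from other lists, at most 4 genes per comparison are named, those with the largest change among genes past the threshold with a mean of at least 10 CPM, and not each of these is named. Genes most like HLA-B, TAP1 and B2M are the 3 with the highest Pearson r of log2 CPM (prior count 2). Coordinates come from GENCODE on GRCh38. Gene lists are described by counts and medians and carry no test of their own. Some genes that these rules select are not reported here.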

Additional observations from a re-analysis of the deposited data

Results flagged for a closer look

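In 5 of the 8 tested class I genes, the log2 change with abemaciclib differed between cells with and without fulvestrant by the test of the interaction. All 5 interactions were negative, against 11.6% of all tested genes negative and 9.49% positive. The differences were −0.56 for HLA-B, −0.76 for HLA-C, −2.47 for HLA-F, −1.07 for TAP1 and −0.60 for TAPBP. No refit that left out 1 library lost the call for HLA-B, HLA-C, TAP1 or TAPBP, and that for HLA-F was lost without fulvestrant replicate 1 or 2.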

How the results depend on the processing

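Of 375 recomputed values under settings other than leaving out a library, 367 kept direction and side of the threshold and none reversed. Adding the replicate block left HLA-C short of the threshold for the combination against abemaciclib (−0.30, adjusted p = 0.0632), and upper-quartile scaling did too (adjusted p = 0.0513); the block changed no other call. Replicate numbers did not pair the libraries (r of same-numbered deviations −0.212 to 0.114, over 0.1 in 2 of 18 pairs). Upper-quartile scaling brought B2M for the combination against DMSO past the threshold (0.22, adjusted p = 0.0462) and the interaction of HLA-E (−0.40, adjusted p = 0.0426), as did no filter on low counts (−0.40, adjusted p = 0.0389). Requiring 10 counts in every library left 1 class I gene called for abemaciclib against fulvestrant, because HLA-F was no longer tested. Of all 9748 genes tested under that filter, 1510 were higher and 1409 lower. Scaling moved the median of all genes by at most 0.0277.

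Leaving out 1 library at a time, class I genes called for the combination against fulvestrant ranged from 0 to 2, the 2 arising without fulvestrant replicate 3, and those for the combination against DMSO from 3 to 6, again 6 without that library. Calls among all genes were also more numerous without it. For the combination against fulvestrant, 185 were higher and 403 lower of 12069 genes, against 35 and 192 of 11803 in the main model. For the combination against DMSO, 3494 were higher and 3475 lower, against 3273 and 3246. Values near 0 changed sign. Against DMSO, B2M with fulvestrant ranged from −0.0054 to 0.20 and HLA-E with the combination from −0.0224 to 0.0710. Combination against abemaciclib ranged from −0.0365 to 0.0824 for B2M, −0.11 to 0.25 for TAP2, −0.0546 to 0.0775 for TAPBP and −0.0204 to 0.13 for TAP1. Combination against fulvestrant ranged from −0.0044 to 0.19 for B2M and −0.12 to 0.0123 for TAPBP. Abemaciclib against fulvestrant ranged from −0.12 to 0.25 for TAP2, −0.0155 to 0.18 for B2M, −0.0332 to 0.0789 for TAP1 and −0.0809 to 0.19 for HLA-C, and the interaction of B2M from −0.19 to 0.0156. The counts of HLA-F and NLRC5 limit what can be said of them.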

Other observations

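Of 13 other class I and class I-like molecules, 5 were tested. Of these, 3 rose and 0 fell with abemaciclib, 1 rose and 3 fell with fulvestrant, and 2 rose and 3 fell with the combination. The shares of all genes, higher and lower, were 20.5% and 20.7%, 25.3% and 25.7%, and 27.7% and 27.5% in the same order. MICB, a stress-induced ligand of the natural killer receptor NKG2D, was measured at 76.3 ± 7.71 CPM in DMSO (SD, n = 3), 91.6 ± 2.93 with abemaciclib, 21.4 ± 2.63 with fulvestrant and 23.3 ± 1.54 with the combination. Its log2 fold change was 0.26 ± 0.10 with abemaciclib (edgeR quasi-likelihood test, adjusted p = 0.0415), −1.83 ± 0.12 with fulvestrant (adjusted p = 4.55e-13) and −1.72 ± 0.11 with the combination (adjusted p = 6.58e-13). MICA, a related ligand, was lower with fulvestrant (−0.80 ± 0.10, adjusted p = 1.88e-07) and with the combination (−1.18 ± 0.10, adjusted p = 1.51e-10). MR1, which presents vitamin B metabolites to mucosal-associated invariant T cells, was higher with abemaciclib, fulvestrant and the combination (0.93 ± 0.25, 1.50 ± 0.24 and 1.86 ± 0.23; adjusted p = 0.00432, 9e-06 and 1.22e-07). HFE, a regulator of iron uptake, was higher with abemaciclib (0.90 ± 0.23, adjusted p = 0.00214) and with the combination (0.64 ± 0.23, adjusted p = 0.0208).

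Of 13 class II presentation genes, 1 was tested. Among the 13, 5 held 0 counts in every library, and 9, counting those 5, never exceeded 3 counts. The 1 tested gene therefore gives no direction for class II genes as a set. HLA-DQB1, named here after its values were seen, was read from 2, 5 and 6 counts in DMSO, 12, 11 and 18 with abemaciclib, 37, 24 and 52 with fulvestrant, and 25, 33 and 21 with the combination, without overlap between DMSO and any treated group. Its log2 fold changes were 1.64, 3.24 and 2.51 (adjusted p = 0.00653, 9.82e-08 and 1.28e-05). Of 11 class I pseudogenes in the table, 0 were tested.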
